A study of Mus musculus with 10 samples.

Results

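Dio2, which encodes the enzyme that turns thyroxine into the active thyroid hormone T3, was read far more often in hearts overexpressing SPOP than in control hearts. The levels of the T3 receptor transcripts and of the hormone transporter gene Slc16a10 overlapped those of the controls. Both receptor transcripts were nonetheless below every control in some of the hearts overexpressing SPOP. A set of 6 genes was listed, namely the deiodinases Dio1, Dio2 and Dio3, the receptors Thra and Thrb, and the transporter gene Slc16a10. They were selected on values of this same comparison, in which Dio2 was high, so their levels and differences are given as a description, and no p-value is given for them. Dio1 was not analysed here. The other 5 genes were found by name among the 24888 genes of the deposited table, and 4 of these 5 were among the 14212 genes that reached 10 scaled reads in 5 libraries or more and entered the fit over all genes.

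The study measured poly(A) RNA from mouse heart tissue in 10 libraries. The 5 libraries called SPOP_CKI carry the genotype label CKI and come from mice with cardiac overexpression of SPOP, the substrate adaptor of a cullin ubiquitin ligase. The 5 others, called Cre_control, are titled WT and have the genotype Myh6Cre. The controls therefore carry the Cre transgene, whose alpha-MHC (Myh6) promoter is active in cardiomyocytes, and no control heart without Cre was compared. The genotype label CKI does not itself name Cre. All mice are labelled male, are described as 8 to 10 weeks old and were kept under sham conditions. The material is heart tissue, labelled as cardiac cell populations, and holds several cell types.

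Thyroid hormone leaves the thyroid mainly as thyroxine, a prohormone. Inside cells, type 2 deiodinase (Dio2) removes an outer-ring iodine to make T3, type 3 deiodinase (Dio3) removes an inner-ring iodine and inactivates both hormones, and membrane transporters carry the hormones across. T3 binds nuclear receptors that partner with retinoid X receptors. In the heart it is known to raise the transcripts of alpha-myosin and of the sarcoplasmic calcium pump and to lower that of beta-myosin.

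Both deiodinases are selenoproteins, made by reading a TGA codon inside the coding sequence as selenocysteine rather than as a stop. The stretches around the in-frame TGA codons of Dio2 and Dio3 are shown. They are from the GENCODE M21 transcripts on GRCm38 (mm10), 5′ to 3′ on the coding strand, with the in-frame TGA in capitals. Dio2-201 holds it at codon 130 of 266 (chr12:90729802-90729846, minus strand) and again at codon 263 (chr12:90729415-90729447), and Dio3-202 at codon 170 of 304 (chr12:110279718-110279762, plus strand).
Dio2 codon 130: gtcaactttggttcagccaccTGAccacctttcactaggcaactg
Dio2 codon 263: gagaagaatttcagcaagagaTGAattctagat
Dio3 codon 170: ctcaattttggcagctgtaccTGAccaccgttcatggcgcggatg
The first Dio2 window and the Dio3 window match at 28 of 45 bases (62.2%).

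The Dio2 promoter is shown because this gene carries the main difference. The window is chr12:90738989-90739288 on the minus strand of GRCm38.p6, from RefSeq, and spans 250 bases before and 50 after the RefSeq start. Capitals mark the palindrome TGACGTCA, the full cyclic AMP response element, searched on both strands.
Dio2 promoter: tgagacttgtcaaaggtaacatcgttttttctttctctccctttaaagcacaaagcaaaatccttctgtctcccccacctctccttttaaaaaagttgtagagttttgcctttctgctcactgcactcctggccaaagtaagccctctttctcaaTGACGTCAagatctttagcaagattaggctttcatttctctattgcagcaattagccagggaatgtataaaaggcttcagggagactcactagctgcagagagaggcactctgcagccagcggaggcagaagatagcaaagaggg
The motif begins 95 bases before the RefSeq start at position 90739038, and that start lies 600 bases beyond the end of Dio2 in the deposited table. The same letters occur in 588 of 32851 RefSeq promoter windows (1.79%). RefSeq windows were found for 5 of the 6 listed genes, and of their 6 windows this is the only one with the motif. A match in letters is no measurement of binding.

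The libraries were checked before the values were read. Recovered depth was 15316293 to 17114869 reads. Spop stood at 25308 to 40631 in SPOP_CKI and 3078 to 3726 in Cre_control, in scaled reads, that is, reads divided by the size factor of their library. The library SPOP_CKI 3 stood apart, with reads for 13167 genes against 18531 to 20806 in the 9 others and a median correlation of 0.819 with its own group against 0.914 or more. In 3 libraries labelled male (Cre_control 5, SPOP_CKI 1 and SPOP_CKI 3) Xist, the transcript of the inactive X chromosome, stood at 4491 to 6578 and the Y-linked genes Ddx3y, Kdm5d, Uty and Eif2s3y were all at 0. In the 7 others Xist was at most 5.31 and Ddx3y at least 1173. Main results are therefore also given without SPOP_CKI 3 and without these 3 libraries. The cardiomyocyte markers were abundant in every library, with a summed value of 336260 to 630350 in SPOP_CKI and 565690 to 754620 in Cre_control. Of these 8 markers 3 were lower and 1 higher in SPOP_CKI, against 4 and 1 without SPOP_CKI 3 and 3 and 0 without the libraries with Xist reads. Over all genes tested 12.3% were lower and 10.0% higher.

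Dio2 (ENSMUSG00000007682, chr12:90724552-90738438, minus strand, deposited gene length 5815 bases) stood at 169, 590, 427, 1103 and 142 scaled reads in SPOP_CKI libraries 1 to 5. In Cre_control libraries 1 to 5 it stood at 32.9, 54.7, 13.6, 15.4 and 47.2. The groups did not overlap, and their nearest libraries, SPOP_CKI 5 and Cre_control 2, were 2.59-fold apart. Within SPOP_CKI the level itself varied widely, highest in libraries 4 and 2 and lowest in 5 and 1. The mean was 486 ± 392 in SPOP_CKI and 32.7 ± 18.4 in Cre_control (SD, n = 5 each). The difference of the log2(value + 1) means, the scale of all differences given here, was 3.65 (SE 0.59), a 12.6-fold difference, and ranked 16th from the top among the 14212 genes tested. It was 3.60 without SPOP_CKI 3 and 4.13 when the 3 libraries with Xist reads were left out. The control values rest on 12 to 51 reads a library and the SPOP_CKI values on 120 to 1266, so the control level is the less precise one. The authors' deposited table gives a log2 fold change of 3.89 for Dio2.

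Over all 14212 genes in the fit, 22.3% passed an adjusted p of 0.05 by limma and are said to be called, 10.0% as higher and 12.3% as lower in SPOP_CKI, and the median difference was -0.11. Of the 4 listed genes in the fit, 1 was among those called higher, namely Dio2. Its high value in this contrast chose the set, so that count follows from the choice and nothing is read from it.

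**Figure D1:**
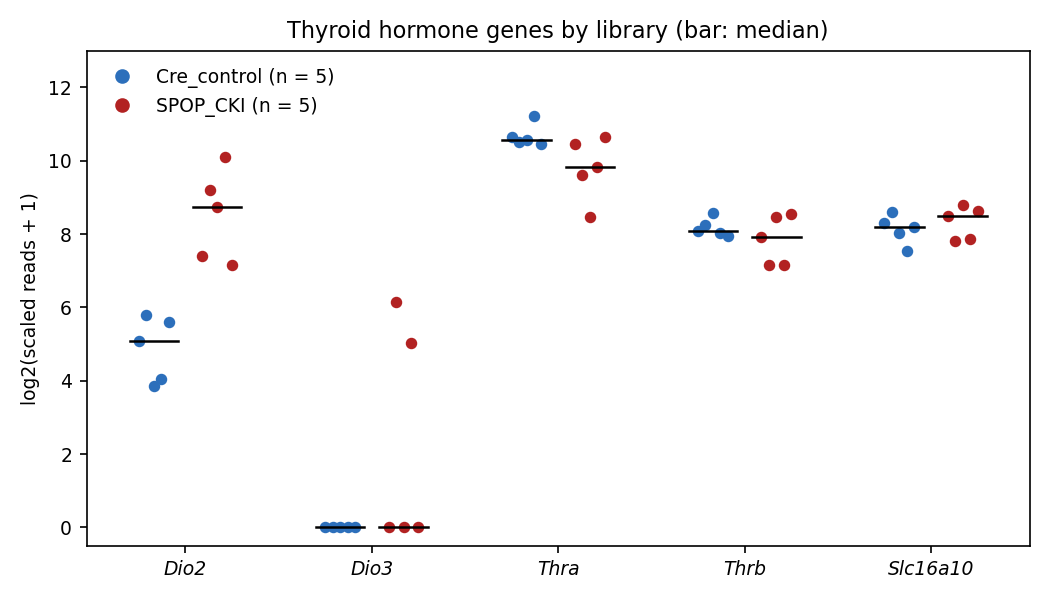
Level of each gene in each library as log2(scaled reads + 1), with libraries 1 to 5 from left to right in each group of points and a bar at the group median. Dio2, whose high value in this contrast chose the set, stands at 142 to 1103 scaled reads in SPOP_CKI and 13.6 to 54.7 in Cre_control. Dio3 is above 0 in SPOP_CKI 2 and 4 alone.

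Dio3 (ENSMUSG00000075707, chr12:110279068-110281097, plus strand, a single exon of 2030 bases) was at 0 in all 5 Cre_control libraries. In SPOP_CKI it stood at 69.4 scaled reads in library 2 and 31.4 in library 4, from 84 and 36 reads, and at 0 in libraries 1, 3 and 5. A count of 0 allows up to 3 reads a library, or 2.63 to 3.54 scaled reads in the 8 libraries without Dio3 reads, counting error alone considered. That bound is least sure in SPOP_CKI 3, where reads were found for only 13167 genes. Meg3 and Tg had 0 reads there, against at least 22 and 25 reads in every other library. Dio3 was below the limit of detection in 8 of 10 libraries, did not pass the filter on low values and was not tested. The 2 libraries with Dio3 reads are those in which Dio2 was highest.

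Dio3 lies at the end of an imprinted domain that also gives rise to the noncoding transcripts Meg3, Rian and Mirg from the maternal chromosome, and Dio3os is its opposite-strand neighbour. Rian stood at 197, 276, 178, 417 and 150 in SPOP_CKI and at 60.5, 64.4, 52.2, 67.3 and 55.7 in Cre_control. Every SPOP_CKI library was above every control, and Rian rose by 1.91 on the log2 scale (SE 0.28, 3.76-fold, adjusted p = 0.00143 by limma). Meg3 stood at 115, 163, 0, 96.7 and 82.7 in SPOP_CKI and at 23.6 to 123 in Cre_control, a difference of -0.63 (adjusted p = 0.734 by limma) that turned to 0.73 without SPOP_CKI 3, the library with no Meg3 reads, and to 0.21 with quantile normalization. Dio3os stood at 18.2 and 22.7 in SPOP_CKI 2 and 4, at 0 to 1.81 in the 3 others and at 0 to 3.84 in Cre_control, and was not tested. Of the 7 genes listed for the domain beside Dio3, 2 were tested and 1 was called, against 22.3% called among all genes. Dlk1, Rtl1 and Mirg were under 10 in every library.

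**Figure D2:**
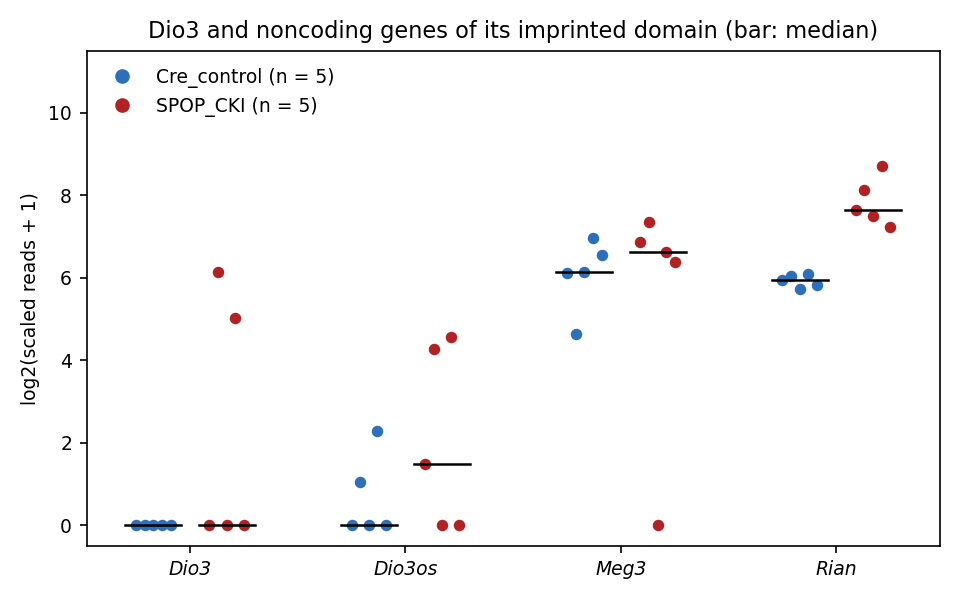
Dio3, Dio3os, Meg3 and Rian as log2(scaled reads + 1) in each library, with libraries 1 to 5 from left to right and a bar at the group median. Dio3 and Dio3os are highest in SPOP_CKI 2 and 4, and Rian is above the controls in all 5 SPOP_CKI libraries (150 to 417 against 52.2 to 67.3).

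Slc16a10 (ENSMUSG00000019838, chr10:40033532-40142258, minus strand) encodes MCT10, a carrier of aromatic amino acids and thyroid hormone. It stood at 361, 223, 442, 233 and 394 scaled reads in SPOP_CKI and at 315, 389, 258, 185 and 293 in Cre_control. The groups overlapped, with means of 331 ± 98.3 and 288 ± 75.2. The difference was 0.19 (SE 0.26), and it was 0.07 without SPOP_CKI 3 and -0.02 without the libraries with Xist reads.

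Thra (ENSMUSG00000058756, chr11:98740638-98769006, plus strand) encodes the main T3 receptor of the heart and, by splicing, a variant that does not bind T3. It stood at 1410, 775, 352, 913 and 1602 in SPOP_CKI and at 1611, 1455, 1517, 2395 and 1405 in Cre_control. SPOP_CKI libraries 2, 3 and 4 were below every control, while 1 and 5 lay within the control range. The means were 1011 ± 502 and 1677 ± 409. The difference was -0.88 (SE 0.36) and shrank to -0.55 without SPOP_CKI 3, the lowest library, and to -0.71 without the libraries with Xist reads.

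The end of Thra shares 1075 bases (chr11:98767932-98769006) with Nr1d1, a circadian repressor gene on the opposite strand. Nr1d1 stood at 1156, 1148, 708, 615 and 1245 in SPOP_CKI and at 2637, 1359, 2459, 1897 and 3212 in Cre_control. The groups did not overlap, and Nr1d1 fell by 1.24 on the log2 scale (SE 0.27, 2.37-fold, adjusted p = 0.00896 by limma). No source used here gives the strand setting of the counting, so reads of Thra and Nr1d1 in the shared bases cannot be told apart.

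Thrb (ENSMUSG00000021779, chr14:17660261-18038090, plus strand) encodes the beta receptor. It stood at 243, 141, 350, 140 and 372 in SPOP_CKI and at 271, 305, 382, 260 and 247 in Cre_control. Libraries 1, 2 and 4 of SPOP_CKI were below every control, and 3 and 5 were within the control range. The means were 249 ± 111 and 293 ± 54.4. The difference was -0.33 (SE 0.30) and ranged from -0.62 without the libraries with Xist reads to -0.16 without SPOP_CKI 4. Within SPOP_CKI, libraries 2 and 4 were the lowest for both Thrb and Slc16a10 and the highest for Dio2.

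Levels of different genes were set side by side as scaled reads per kb of the deposited gene length. How that length was defined is not given, and the order depends on it. In Cre_control the order was Thra at 363 ± 88.7, Thrb at 39.5 ± 7.35, Slc16a10 at 39.2 ± 10.2, Dio2 at 5.63 ± 3.17 and Dio3 at 0. The ranges of Thrb and Slc16a10 overlapped, while Thra and Dio2 were apart from their neighbours. In SPOP_CKI the order was Thra at 219 ± 109, Dio2 at 83.6 ± 67.4, Slc16a10 at 45.0 ± 13.4, Thrb at 33.7 ± 14.9 and Dio3 at 9.93 ± 15.1. Dio2 thus stood below Thrb and Slc16a10 in Cre_control and above both in SPOP_CKI by its mean. In SPOP_CKI, however, its range of 24.4 to 190 per kb overlapped those of Thra, Slc16a10, Thrb and Dio3 (0 to 34.2).

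The genes around Dio2 were read as well. Gm26512, a noncoding gene that starts inside Dio2 on the opposite strand and shares 238 bases with it, stood at 1.81, 4.13, 42.9, 6.97 and 1.18 in SPOP_CKI. In Cre_control it had 0.961 scaled reads in library 4 and 0 in the others, and it was not tested. Its highest library, SPOP_CKI 3, was not the highest for Dio2. Gm26512 (chr12:90738201-90869235) also spans the RefSeq start of Dio2 at position 90739038. The strand setting of the counting is not known, so reads of Dio2 and Gm26512 in such bases cannot be told apart. Of the genes within 500 kb of Dio2, the 3 others were 4930544I03Rik, at most 7.84, Nrxn3, at most 7.43, and Cep128, a centriole gene with a difference of -0.48 (adjusted p = 0.4 by limma).

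Among 9721 protein-coding genes with a mean of at least 100, the 5 whose pattern was most like that of Dio2 were Col14a1, Lhfpl2, Emp1, Rab31 and Fstl1. Likeness was the Pearson correlation of log2(value + 1) over the 10 libraries, which share their group structure and their depth, and is given as a description. It was 0.991 for Col14a1, a fibril-associated collagen, and 0.960 with the group means removed. Col14a1 stood at 690, 1617, 1169, 3440 and 778 in SPOP_CKI and at 243, 286, 138, 154 and 353 in Cre_control. As for Dio2, library 4 was highest, followed by 2 and then by 3, an order that follows from choosing genes by this correlation. The correlation was 0.986 for Lhfpl2, a tetraspan membrane protein gene, 0.985 for Emp1, an epithelial membrane protein gene, 0.982 for Rab31, a vesicle transport GTPase gene, and 0.979 for Fstl1, a secreted glycoprotein gene. With the group means removed these were 0.938, 0.938, 0.913 and 0.918. Under other processing settings Col14a1 stayed within the first 2 genes, while Rab31 fell as low as place 22.

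**Figure D3:**
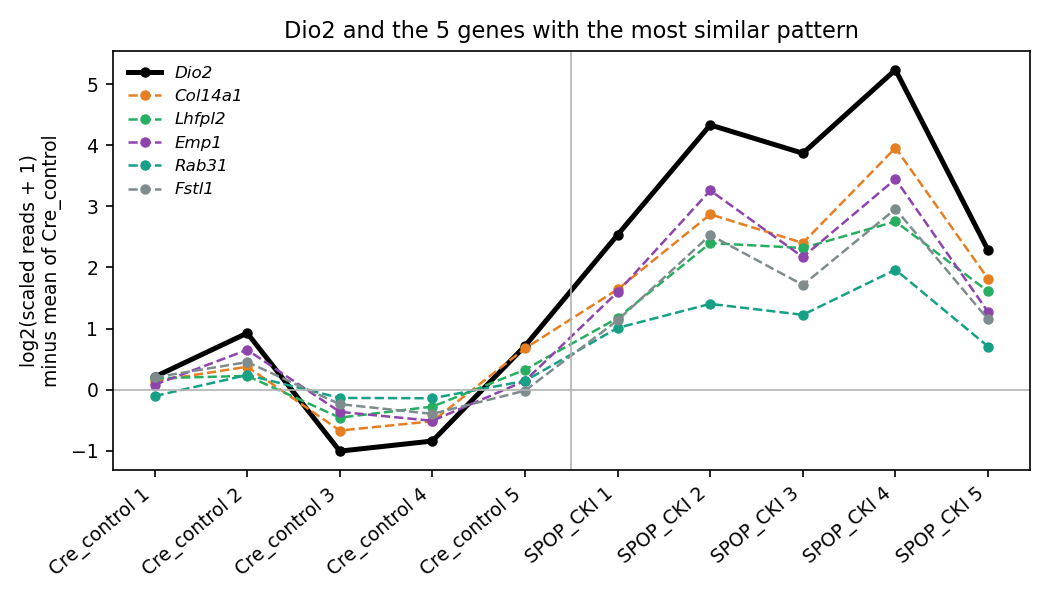
Dio2 and its 5 most similar genes in each library, as log2(scaled reads + 1) minus the mean of Cre_control, with lines joining the libraries of 1 gene as a guide for the eye and no order implied. All 6 genes are highest in SPOP_CKI 4, then in 2 and then in 3, with Dio2 at 1103, 590 and 427 scaled reads there. The 5 genes were picked for their likeness over these libraries, so the shared order follows from the choice.

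Markers of cell types were read beside Dio2, since in bulk tissue fewer cells of a type and less RNA per cell cannot be told apart. Brown adipocytes and skeletal muscle are known for Dio2. Of the 5 brown adipocyte markers listed, Ucp1 was at most 3.30 and Zic1 at most 4.36 scaled reads, and Elovl3 and Otop1 were not analysed. Cidea stood at 232 to 436 in SPOP_CKI and 312 to 615 in Cre_control, not called by limma or edgeR and lower by DESeq2. The 5 skeletal muscle markers analysed summed to 26.0 to 169 in SPOP_CKI and 27.2 to 75.9 in Cre_control, with 0 of 2 tested called by limma, edgeR or DESeq2 and 0 at an unadjusted p under 0.05. Without SPOP_CKI 3, the library with the highest sum, the 1 marker that passed the filter, the fast troponin gene Tnni2, named after its values were seen, was lower by limma (adjusted p = 0.0372).

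The activated fibroblast markers were Postn, Cthrc1, Meox1, Thbs4 and Comp. They summed to 3386, 20509, 3516, 34780 and 2389 in SPOP_CKI and to 675 to 1449 in Cre_control. Of 4 tested, 3 were higher, 3 without SPOP_CKI 3 and 4 without the libraries with Xist reads. Among all genes 10.0% were called higher and 12.3% lower. The sums were highest in libraries 4 and 2 and lowest in library 5, as Dio2 was. Macrophage sums, given below, were also highest in libraries 4 and 2. General fibroblast sums were highest in library 4, then in 3, and lowest in 5. General fibroblast markers summed to 30339, 49779, 51082, 73180 and 25530 in SPOP_CKI and to 24890 to 28686 in Cre_control, with 1 of 6 higher, 3 without SPOP_CKI 3 and 4 without the libraries with Xist reads. Macrophage markers summed to 2667, 8299, 3693, 9566 and 3514 in SPOP_CKI and to 2428 to 4099 in Cre_control, with 2 of 6 higher, 1 without SPOP_CKI 3 and 3 without the libraries with Xist reads. Endothelial markers summed to 12864 to 18049 in SPOP_CKI and 21459 to 24259 in Cre_control, with 4 of 5 lower, 3 without the libraries with Xist reads. The part of these cell types in the Dio2 difference was not tested.

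The other genes that move, convert or sense thyroid hormone were taken from 4 lists of 40 genes in all, none of them among the 6. Of these, 35 were tested, 3 were higher, 6 were lower and 26 were not called, beside 10.0% higher and 12.3% lower among all genes. With 1 library left out in turn, the lower count ranged from 4 (without Cre_control 1 or 4) to 7 (without SPOP_CKI 3 or 5). Leaving out the libraries with Xist reads gave 4 higher and 8 lower. The count of higher genes was 1 without Cre_control 1, 2, 3 or 4 in turn, and 1 with no filter on low values and 5 with DESeq2.

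Among 9 transporter genes, 6 were tested, 1 rose and 1 fell, beside 10.0% higher and 12.3% lower among all genes. Their median difference was 0.10. Slc7a5 encodes LAT1, an amino acid carrier that also moves thyroid hormone. It stood at 246, 489, 201, 223 and 275 in SPOP_CKI and at 77.5, 95.5, 149, 75.9 and 126 in Cre_control. Its groups did not overlap, and it rose by 1.42 on the log2 scale (SE 0.28, 2.67-fold, adjusted p = 0.00623 by limma). Slc3a2, which encodes the heavy chain that pairs with LAT1, differed by -0.01 and was not called. Slco2b1, an organic anion transporter gene, stood at 308, 349, 296, 452 and 560 in SPOP_CKI and at 638, 649, 635, 812 and 647 in Cre_control. It fell by 0.82 (SE 0.19, 1.76-fold, adjusted p = 0.0126 by limma), again without overlap.

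Deiodinase protein is itself controlled by ubiquitin, which marks Dio2 for turnover. Of 9 genes listed for deiodinase turnover and hormone binding, 7 were tested and none was called by limma, beside 22.3% of all genes. Their median difference was -0.21. Of the 7, 2 had an unadjusted p under 0.05, 1 was called by DESeq2 and none by edgeR. Wsb1, which encodes an adaptor that recognises Dio2, had means of 707 ± 193 and 475 ± 41.3 and a difference of 0.52 (adjusted p = 0.0975 by limma), and was called with DESeq2 and without SPOP_CKI 5. Ube2g2, a ubiquitin-conjugating enzyme gene, had means of 967 ± 84.1 and 1223 ± 180 and a difference of -0.33 (adjusted p = 0.113 by limma).

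All 7 selenoprotein synthesis genes were tested, and 1 was called lower, beside 12.3% of all genes, with a median of -0.35. Without the libraries with Xist reads 2 were lower and 1 higher. Trnau1ap, whose product binds the selenocysteine transfer RNA, fell by 0.86 (1.82-fold, adjusted p = 0.0233 by limma), from 445 ± 99.9 in Cre_control to 249 ± 77.5. Its groups overlapped, and the call was lost without Cre_control 1, 2 or 4 or SPOP_CKI 4 and with the replicate number as a block. Sephs2, which encodes the enzyme that makes the selenium donor, had means of 529 ± 136 and 353 ± 47.1 and a difference of 0.55 (adjusted p = 0.0739 by limma), and was called with DESeq2 and without SPOP_CKI 2.

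Of 15 receptor partners and coregulators, all tested, 4 fell and 2 rose, beside 12.3% lower and 10.0% higher among all genes. Their median difference was -0.07. The retinoid X receptors pair with T3 receptors on DNA. Rxra stood at 725, 793, 271, 802 and 1359 in SPOP_CKI and at 1546 to 1751 in Cre_control, and fell by 1.23 (SE 0.33, 2.34-fold, adjusted p = 0.0235 by limma), a call lost without Cre_control 1 or 4. For Rxra the difference shrank to -0.88 without SPOP_CKI 3, its lowest library, and to -0.80 without the libraries with Xist reads, and was called both times. Rxrb stood at 182 to 433 in SPOP_CKI and 518 to 979 in Cre_control and fell by 1.06 (2.08-fold, adjusted p = 0.015 by limma). Its difference was -0.85 without SPOP_CKI 3, also its lowest library. Gps2 and Hdac3 belong to the corepressor complex that unliganded receptors recruit. Gps2 fell by 0.96 (1.95-fold, adjusted p = 0.00871 by limma) and Hdac3 by 0.69 (1.62-fold, adjusted p = 0.00402 by limma). Hdac3 stood at 517 to 667 in SPOP_CKI and 824 to 950 in Cre_control, without overlap. The 2 genes that rose, named after their values were seen, were Tbl1x, of the same corepressor complex, by 0.64 (adjusted p = 0.037 by limma), and Med1, a Mediator subunit gene, by 0.57 (adjusted p = 0.0452 by limma). Both calls were lost with no filter on low values and without Cre_control 1, 2, 3 or 4 or SPOP_CKI 5, that of Tbl1x also without SPOP_CKI 1 or 4 and that of Med1 also without Cre_control 5 or SPOP_CKI 2. The corepressor gene Ncor1 differed by -0.27 and was not called.

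Of 17 cardiac genes known to be raised by T3, all tested, 9 fell in SPOP_CKI, 1 rose and 7 were not called, with a median of -1.10 against -0.11 over all genes. Over all genes 12.3% were called lower and 10.0% higher. With 1 library left out in turn, the count that fell ranged from 6 (without Cre_control 1) and 7 (without Cre_control 2) to 10 (without SPOP_CKI 3 or 5). The count that rose was 2 without SPOP_CKI 3, and 10 fell and 2 rose without the libraries with Xist reads. The list was chosen with results of these libraries known and is no independent evidence of a direction. Cardiomyocyte markers, Myh6 among them, were also lower in 3 of 8, and the part of cell composition in these changes was not tested.

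The gene with the largest fall on this list was Ucp3, which encodes a mitochondrial carrier. It stood at 62.3, 51.2, 221, 47.9 and 107 in SPOP_CKI and at 1692, 1691, 1663, 1634 and 1847 in Cre_control. It fell by 4.36 (SE 0.36, 20.6-fold, adjusted p = 0.000117 by limma), and its groups were 7.40-fold apart at the nearest libraries. Thrsp, a lipogenic gene named for its response to thyroid hormone, fell by 1.75 (3.36-fold, adjusted p = 0.00495 by limma), from 499 ± 160 to 157 ± 74.2. Slc2a4, the insulin-responsive glucose transporter gene, stood at 2945, 1192, 628, 1566 and 2493 in SPOP_CKI and at 4348 to 5251 in Cre_control and fell by 1.66 (3.16-fold, adjusted p = 0.00807 by limma). Its fall was 2.52-fold without SPOP_CKI 3, its lowest library.

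Myh6, the alpha-myosin gene, stood at 119167, 37475, 67074, 62100 and 199995 in SPOP_CKI and at 224944 to 286166 in Cre_control. It fell by 1.60 (3.02-fold, adjusted p = 0.0145 by limma), and libraries 1 and 5 were closest to the controls. Atp2a2, the sarcoplasmic calcium pump gene, stood at 71047, 46299, 103940, 70909 and 143336 in SPOP_CKI and at 142343 to 196188 in Cre_control. It fell by 1.10 (2.15-fold, adjusted p = 0.0199 by limma), with library 5 reaching the control range and the call lost without Cre_control 1 or 2.

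A further 4 genes called on this list were named after their values were seen. Klf9, a transcription factor gene that responds directly to T3, fell by 1.30 (2.46-fold, adjusted p = 0.00354 by limma), from 2672 ± 458 to 1126 ± 413. Slc25a4, the mitochondrial ADP/ATP carrier gene, fell by 1.35 (adjusted p = 0.00914 by limma). Hcn2, a pacemaker channel gene, fell by 1.37 (adjusted p = 0.0251 by limma), a call lost without Cre_control 1, 2 or 3 or SPOP_CKI 2 and with the replicate block. Atp1b1, the gene of a sodium pump beta subunit, was the one that rose, by 1.13 (2.19-fold, adjusted p = 0.003 by limma), from 3498 ± 710 to 7611 ± 1351, without overlap.

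Of 5 cardiac genes known to be lowered by T3, 2 rose, 1 fell and 2 were not called, beside 10.0% higher and 12.3% lower among all genes. Their median difference was 0.26. Myh7, the beta-myosin gene, stood at 47644, 47971, 37447, 10814 and 83721 in SPOP_CKI and at 6685, 1905, 7087, 9815 and 20635 in Cre_control. It rose by 2.41 (SE 0.64, 5.31-fold, adjusted p = 0.0207 by limma), although SPOP_CKI 4, the library with the most Dio2, lay within the control range, and the call was lost with no filter on low values. Slc8a1, the sodium-calcium exchanger gene, stood at 2237 to 4889 in SPOP_CKI and 1233 to 2164 in Cre_control and rose by 0.98 (1.98-fold, adjusted p = 0.0131 by limma). Adcy6, an adenylyl cyclase gene, fell by 1.10 (adjusted p = 0.0272 by limma), a call lost with edgeR, without any one of the 5 Cre_control libraries and without SPOP_CKI 2 or 4. Pln, the gene of the calcium pump inhibitor phospholamban, ranged from 5979 to 39818 in SPOP_CKI and from 15408 to 30397 in Cre_control, a difference of -0.38 (adjusted p = 0.552 by limma).

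**Figure D4:**
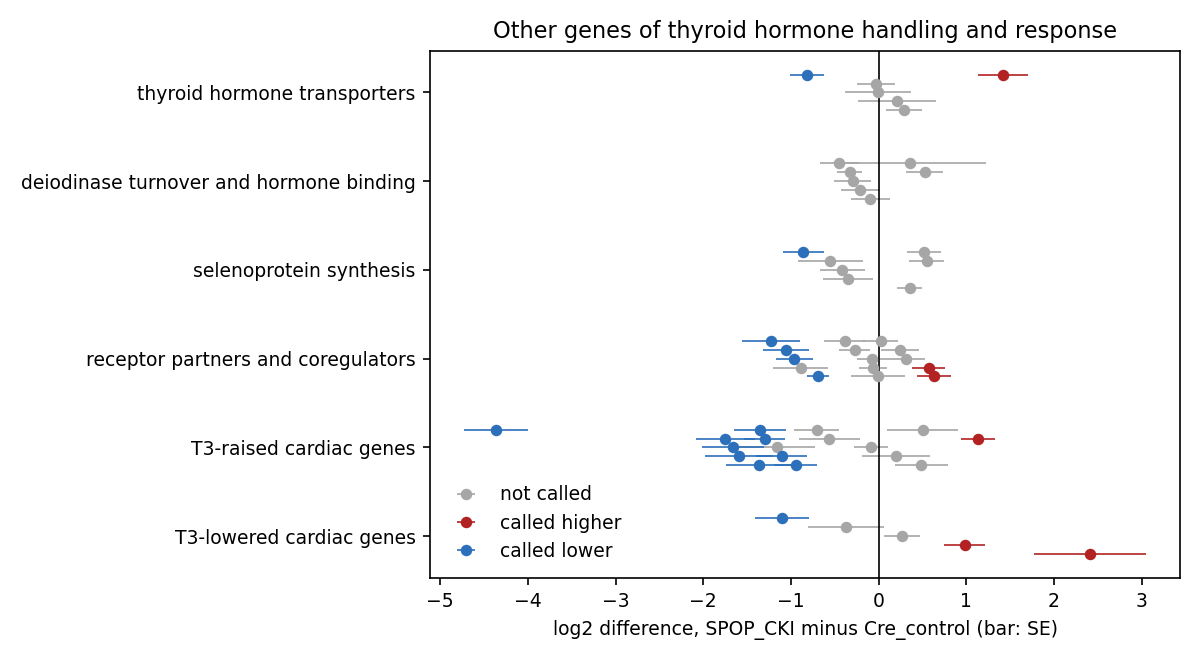
Difference of each tested gene of 6 lists on the log2(value + 1) scale, SPOP_CKI minus Cre_control, with bars for the SE and colour for the limma call at an adjusted p of 0.05. Calls on the handling lists fall on both sides of 0 (3 higher, 6 lower), and 9 of 17 genes known to be raised by T3 are called lower, with Ucp3 at -4.36. Among all genes 10.0% are called higher and 12.3% lower.

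Genes of the pituitary and thyroid gland that set the supply of hormone were mostly outside what heart tissue shows. Of 9 listed, 4 were analysed. Tshr, the receptor for thyrotropin, was at most 3.61 in any library, and Tg, the thyroglobulin gene, had means of 45.3 ± 30.3 in SPOP_CKI and 35.2 ± 9.09 in Cre_control. Its log2 difference was -0.51 (adjusted p = 0.744 by limma), and 0.64 without SPOP_CKI 3, the library with no Tg reads. It was also above 0 with DESeq2 (0.36), edgeR (0.39) and quantile normalization (0.46) and without the libraries with Xist reads (0.52). Circulating hormone was not measured in these files.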

How the data were processed

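The deposited table gives each library's scaled read signal, which the recovered reads show to be a gene's reads over the library's size factor. The submitters' processing notes name featureCounts 1.5.0-p3, DESeq2 1.20.0 and the build mm10. Aligner, annotation release and strand setting were not given in the sources used here. Log2 fold changes and adjusted p-values deposited by the authors are in the same table. Whole reads were recovered for 100% of values at a tolerance of 0.001, with 15316293 to 17114869 reads per library.

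The test was limma 3.58.1 (R 4.3.3; lmFit, then eBayes with trend and robust variances) on log2(value + 1) of the 14212 genes reaching a value of 10 in 5 libraries or more, with genotype as the sole term, two-sided, and Benjamini-Hochberg adjustment over all of them at 0.05. It was tested on simulated data first. A fold is the log2 difference converted back. Per-kilobase levels divide by the gene length in the deposited table. Count tests on the recovered reads (edgeR 4.0.16, DESeq2 1.42.0), TMM and quantile scaling, pseudocounts of 0.5 and 5, no filter and a minimum of 50, the replicate number as a block, and leaving out libraries were the alternatives.

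Samples were grouped by title and genotype. Within groups, every pair of libraries differed by more than sampling noise (chi-square of 13.8 or more per degree of freedom). The labels number the hearts as repeats and give no litter or batch, so p-values reflect only how these libraries spread, which may be technical. The genes, lists and rules were chosen with earlier results of these data known. Named were all listed genes, Myh6, Myh7, Atp2a2, Pln, genes overlapping a listed gene, genes within 500 kb of Dio2, the 5 genes most like Dio2, and from each pathway list up to 4 called genes with the largest difference, or the 2 with the smallest p where fewer than 2 were called. Slc3a2, Ncor1, Dio3os and the marker genes were named after their values were seen. Some genes counted on the lists are not reported here by name. Sequences are from GENCODE M21 (GRCm38, the build of mm10) and RefSeq (GRCm38.p6).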

Additional observations from a re-analysis of the deposited data

Results flagged for a closer look

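In 7 of 77 groups of 5 libraries examined, 1 library lay far from the other 4, its gap to the nearest exceeding 0.71 of the whole range. For independent groups of normally distributed values this limit is passed in about 1 in 20. Scaled reads need not be normal and the groups share the same 10 libraries, so 7 of 77 is not set against that rate. Thra stood at 2395 scaled reads in Cre_control 4, against 1405 to 1611 in the other controls. Slco2b1 was also highest in that library, at 812 against 635 to 649. Slc7a5 stood at 489 in SPOP_CKI 2, against 201 to 275 in the rest of its group. Slc8a1 stood at 4889 in SPOP_CKI 5, against 2237 to 2815. The other 3 were all in Cre_control 5, one of the libraries labelled male with Xist reads and no Y-linked reads. There Ucp3 stood at 1847 against 1634 to 1692, Slc8a1 at 2164 against 1233 to 1423, and Tbl1x at 1469 against 883 to 1016.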

How the results depend on the processing

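The Dio2 difference stayed between 3.25 (without SPOP_CKI 4) and 4.13 on the log2 scale under every alternative run, and no difference that was called changed sign. Genes called higher numbered 1421 and lower 1747. Leaving out 1 library gave 891 to 1930 and 1034 to 2451. DESeq2 gave 2115 and 2026, edgeR 1689 and 1488, quantile normalization, which moved the median difference of all genes from -0.11 to 0.03, 1876 and 1935, and no filter 1084 and 1530. Handling and receptor genes called higher numbered 1 to 3 when 1 library was left out, 5 with DESeq2 and 1 with no filter, against 3. Those called lower numbered 4 to 7 when 1 library was left out and 5 with the replicate block, against 6. Genes raised by T3 that were called lower numbered 6 to 10 when 1 library was left out, against 9, and those called higher numbered 1 to 2 when 1 library was left out and 2 without the libraries with Xist reads, against 1. Of those lowered by T3, 1 was called higher with no filter, against 2, and the 1 called lower became 0 with edgeR and 0 to 1 when 1 library was left out. Over single named genes, 39 calls were lost and 4 gained across all alternatives. With the replicate block Dio2 stayed at 3.65, and 1310 genes were called higher and 1636 lower. Same-numbered libraries shared deviations weakly (correlations of 0.026 to 0.159), and 2 of 5 SPOP_CKI libraries correlated best with their own number, so the numbers were not taken to pair hearts. Low read counts limit Dio3, at 0 in 8 libraries, and the control level of Dio2, at 12 to 51 reads. In SPOP_CKI 3 the small number of genes with reads limits Dio3 as well.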

Other observations

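Adipocyte genes were also read. Fabp4, a fatty acid carrier gene expressed in adipocytes and in cardiac endothelium, stood at 5461, 2226, 11210, 5826 and 2391 scaled reads in SPOP_CKI and at 17335 to 32663 in Cre_control, and fell by 2.33 on the log2 scale (adjusted p = 0.00338 by limma). The adipocyte hormone gene Adipoq was at most 26.5 in any library. Smooth muscle and pericyte markers summed to 17006 to 32181 in SPOP_CKI and 23976 to 32799 in Cre_control, with 1 of 5 lower, beside 12.3% of all genes tested. Neuron and glia markers summed to 137 to 249 and 63.3 to 179, with 0 of 2 tested called by limma, edgeR or DESeq2 and 0 at an unadjusted p under 0.05.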
